A study of Mus musculus with 4 samples.

Results

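RNA polymerase II (Pol II) ChIP-seq peaks were described here on the contigs of the mouse genome, which are the stretches of assembled DNA that belong to the mm10 assembly but have no position on a chromosome. A peak was taken when the sequence name in the deposited peak tables was neither chromosomes 1 to 19, X or Y nor mitochondrial DNA, and no measured value entered that choice. Of 389754 peaks in the 4 libraries, 1488 lay on contigs. The assembly holds 44 contigs, 22 assigned to a chromosome without a position and 22 assigned to no chromosome, and 40 of them carried a peak in at least 1 library.

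Brain endothelial cells (ECs) were flow-sorted from mice on the C57BL/6J background, with 200000 cells taken for chromatin immunoprecipitation. The old WT Cre libraries (CdH5CRE) came from mice of 20 to 23 months that carried a tamoxifen-activated Cre driven by VE-cadherin, the endothelial cadherin encoded by Cdh5. The young EC-K4KO libraries (ECK4KO) came from mice of 4 to 6 months with the same Cre and floxed Klf4, so that tamoxifen removes the transcription factor KLF4 from ECs. Both groups were given tamoxifen at 8 weeks. There were 2 libraries per group. Genotype and age differed together and cannot be told apart, and no source used here says which mice went into which library, so p-values measure only the spread between these libraries.

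Contigs are where an assembly collects what it could not place: copies of recent gene duplications, and satellite DNA, in which a short unit is repeated head to tail. Mouse pericentromeric heterochromatin, the densely packed chromatin beside each centromere, is built of the AT-rich major satellite, of which the assembly holds only a small share. Reads from the many genomic copies of such a sequence can pile up on the few copies that the assembly holds. Pol II ChIP-seq marks DNA bound by the enzyme that transcribes protein-coding genes and many non-coding RNAs.

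The contig regions that recurred in all 4 libraries fell into a few kinds of sequence, and examples are shown because the results below differ between these kinds. Sequences are from the RefSeq copy of GRCm38, plus strand. In the contig JH584304, the bases around the tallest contig peak repeat every 234 bases. Shown are the unit at chrUn_JH584304:103559-103792 and the next one at chrUn_JH584304:103793-104026, which differ at 17 positions, capitals in the second marking the bases that differ from the first.
JH584304 unit: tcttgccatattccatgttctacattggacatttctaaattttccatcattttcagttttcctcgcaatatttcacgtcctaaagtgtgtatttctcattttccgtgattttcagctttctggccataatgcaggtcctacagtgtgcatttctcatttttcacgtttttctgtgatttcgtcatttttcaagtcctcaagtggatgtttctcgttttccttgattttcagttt
JH584304 next unit: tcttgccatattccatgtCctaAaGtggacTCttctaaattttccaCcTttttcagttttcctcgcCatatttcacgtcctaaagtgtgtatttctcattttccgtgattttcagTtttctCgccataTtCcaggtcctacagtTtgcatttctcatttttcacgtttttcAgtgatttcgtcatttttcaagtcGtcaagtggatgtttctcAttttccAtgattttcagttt
Within such a unit lie degenerate sub-units of about 58 bases. The contig GL456393 holds sequence of 2 kinds, and both are shown with alternate units in capitals and lower case. At chrUn_GL456393:10012-10127 the period is 58 bases and at chrUn_GL456393:35791-35895 it is 21 bases.
GL456393, 58-base period: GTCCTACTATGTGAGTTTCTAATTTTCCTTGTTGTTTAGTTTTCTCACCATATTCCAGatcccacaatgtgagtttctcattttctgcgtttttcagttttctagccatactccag
GL456393, 21-base period: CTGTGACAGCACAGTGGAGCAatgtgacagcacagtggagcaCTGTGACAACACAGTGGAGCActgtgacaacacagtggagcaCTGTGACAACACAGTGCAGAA
GL456370 carries a 31-base repeat, shown for chrUn_GL456370:26508-26600 in the same way because its peak had the lowest old WT Cre over young EC-K4KO ratio among the contig regions with a peak in all 4 libraries.
GL456370, 31-base period: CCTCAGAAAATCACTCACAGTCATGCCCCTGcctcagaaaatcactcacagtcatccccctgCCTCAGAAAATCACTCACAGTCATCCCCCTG
The contigs of chromosome 1 hold duplicated genes, and few of their recurrent regions (2 of 29) matched themselves at 60% or more, so bases from a region that did not are shown for contrast, at chr1_GL456211_random:125351-125470.
GL456211, no short period: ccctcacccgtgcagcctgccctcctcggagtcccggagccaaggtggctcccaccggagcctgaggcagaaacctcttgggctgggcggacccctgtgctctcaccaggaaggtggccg
The stretch of 58-base period contained 37.1% G and C, that of 21-base period 52.4% and the chromosome 1 stretch 70.0%.

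**Figure D1:**
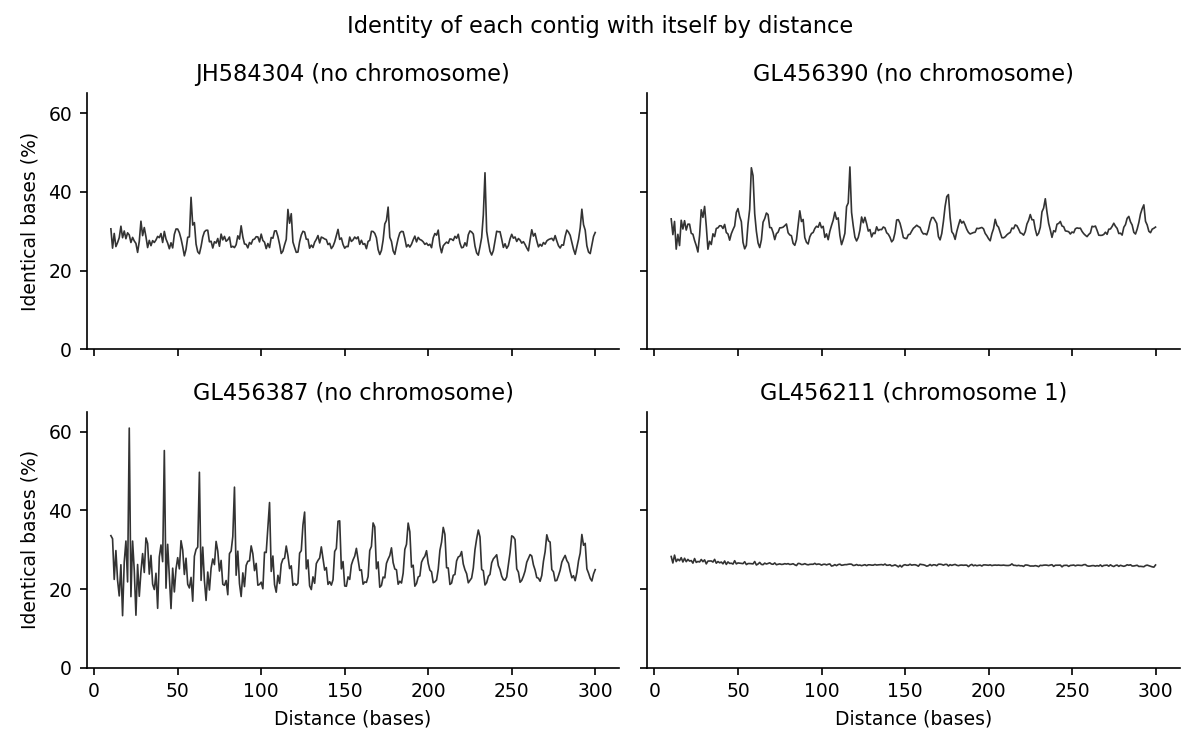
Percent of bases identical to the base a given distance before (y axis) against that distance in bases (x axis), for 4 whole contigs. JH584304 peaks at 234 bases with 44.9% identity, GL456390 at 58 and 117 bases with 46.1% and 46.3%, GL456387 at 21 bases with 60.9%, and GL456211 shows no peak.

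The peak caller counted 65734178, 27455452, 35227929 and 22705175 fragments, in the order old WT Cre replicate 1, replicate 2, young EC-K4KO replicate 1, replicate 2, which is kept below. The lowest pileups listed were 13, 8, 9 and 7. Young EC-K4KO replicate 2 stood apart with 235591 peaks against 35638 to 78851. A promoter peak was present for 25.6%, 24.5%, 10.7% and 67.5% of all protein-coding genes, for 3, 5, 0 and 8 of 12 endothelial marker genes, and for 0, 1, 1 and 5 of 6 neuronal, 2, 1, 1 and 3 of 5 astrocyte, 0, 1, 0 and 4 of 5 oligodendrocyte, 2, 0, 0 and 4 of 5 microglial and 2, 0, 1 and 3 of 5 mural cell genes. The part of other cell types in the contig values was not tested. A peak within 1500 bp of the Klf4 start was listed in both young EC-K4KO libraries and neither old WT Cre library, and because Pol II at a promoter measures neither the transcript nor the floxed part of the gene, this does not check the labels. No input library was used in calling, so Pol II binding and the number of genomic copies of a sequence cannot be told apart in any pileup given here.

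Contig peaks were few in number and dense for their length. The libraries had 381, 253, 368 and 486 of them. These were 0.483% (95% exact binomial interval 0.436% to 0.534%), 0.638% (0.562% to 0.721%), 1.03% (0.930% to 1.14%) and 0.206% (0.188% to 0.225%) of all peaks, intervals that cover counting error only. The contigs make up 0.198% of the sequenced bases of the assembly. Per megabase they carried 72.6, 48.2, 70.2 and 92.6 peaks, against 29.6, 14.9, 13.3 and 88.8 on placed chromosomes. Contig density was higher in 4 of 4 libraries, by 2.45, 3.24, 5.27 and 1.04 times, a mean log2 ratio of 1.36 (two-sided exact sign-flip permutation over 4 libraries, p = 0.13, the smallest that 4 libraries allow). In young EC-K4KO replicate 2, whose list was the longest, the densities were nearly equal. The ratio depended on which contigs were counted. Contigs assigned to no chromosome were denser in 4 of 4 libraries, with a mean log2 ratio of 3.22. Contigs assigned to a chromosome were denser in 3 of 4, by 1.41, 1.46, 2.88 and 0.703 times, with a mean of 0.51 (exact sign-flip permutation, p = 0.38). Without JH584304 alone the ratios were 1.95, 2.30, 4.07 and 0.876, with a mean of 1.00 (exact sign-flip permutation, p = 0.25). The number of contig peaks averaged 317 ± 90.5 (SD, n = 2) for old WT Cre against 427 ± 83.4 for young EC-K4KO and did not separate the groups (two-sided exact permutation test, p = 0.667, where 2 against 2 allow no p below 0.33).

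Contig pileup was higher in both old WT Cre libraries as a share of fragments, but not as a share of all peak pileup. Summed over contig peaks, the summit pileups equalled 0.927% and 1.04% of the fragments in old WT Cre against 0.298% and 0.223% in young EC-K4KO. Fragments that overlap more than 1 summit enter this sum more than once. The means were 0.983% ± 0.0803 and 0.260% ± 0.0534 (SD, n = 2), a ratio of 3.78, and the groups did not overlap (two-sided exact permutation test, p = 0.33, which no 2 against 2 can go below). Taken instead as a share of the summed pileup of all peaks, contig peaks held 3.37%, 3.57%, 3.72% and 1.21%, so that the groups overlapped (two-sided exact permutation test, p = 1) and young EC-K4KO replicate 2 alone was low. That sum is not neutral between groups. It includes placed regions of the 58-base period, which equalled 23.7% and 25.7% of fragments in old WT Cre against 5.79% and 3.03% in young EC-K4KO. It also includes the 235591 peaks of young EC-K4KO replicate 2, the longest list. Most of the contig pileup lay on 1 contig: JH584304 held 88.2%, 87.3%, 81.1% and 72.1% of the summed contig pileup, and 22.3%, 30.4%, 24.5% and 17.9% of the contig peaks. Without JH584304 the difference between groups fell from 0.723 to 0.0613 percentage points, and with only peaks of a fold enrichment of at least 4 it fell to 0.306. Over the contigs assigned to a chromosome it turned to -0.00910 percentage points.

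Contig peaks were also wider. Their median width was 283, 262, 274 and 225 bp, against 222, 203, 193 and 185 bp on placed chromosomes, wider in 4 of 4 libraries by a mean ratio of 1.30 (exact sign-flip permutation, p = 0.13). The widest contig peak measured 2101, 2087, 2030 and 2029 bp. Median fold enrichment, the pileup over the local background, was 4.13, 5.20, 4.12 and 4.85 on contigs and 3.94, 4.85, 4.16 and 4.79 on placed chromosomes, higher in 3 of 4 libraries (exact sign-flip permutation, p = 0.25). That background was higher behind contig peaks in 4 of 4 libraries. The peak caller takes it from the surrounding 10 kb of the same library, and it can be computed back from pileup and fold enrichment. Relative to the lowest background of the library, the median behind contig peaks was 2.62, 3.97, 4.48 and 2.78, against 1.00, 1.00, 1.00 and 1.19 behind placed peaks. At least 2 times the lowest background lay behind 60.6%, 64.4%, 79.1% and 62.6% of contig peaks and behind 0.976%, 2.08%, 6.44% and 19% of placed peaks.

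The 5 contig peaks of highest pileup in each library, 20 in all, lay on JH584304 with 1 exception, on GL456392. The tallest was the same in every library, at chrUn_JH584304:102695-104519 in old WT Cre replicate 1. It reached 31905 and 13793 fragments in old WT Cre against 3751 and 1156 in young EC-K4KO, or 485, 502, 106 and 50.9 per 1000000 fragments of the library, a scaled pileup written as FPM below. The lower old WT Cre value was above the higher young EC-K4KO value by a wide margin, and the young EC-K4KO libraries also differed from each other. Among all peaks of its library this one ranked 17th, 18th, 17th and 35th by pileup, and of the 500 tallest peaks of each library 147, 131, 140 and 112 lay on contigs.

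Peaks of the 4 libraries that overlapped by at least 1 bp were merged into regions. Contig peaks recurred far more often than placed ones. The 710 contig regions comprised 351 found in 1 library, 129 in 2, 80 in 3 and 150 in all 4 (21.1%), whereas 2160 of 334109 placed regions (0.646%) were in all 4. Over all regions together the share was 0.69%. Seen per library, 40.2%, 61.7%, 42.7% and 33.5% of contig peaks lay in a region shared by all 4, against 2.90%, 5.89%, 6.54% and 0.984% of placed peaks. The young EC-K4KO replicate 2 library supplied 181 of the 351 regions seen once (51.6%). A reciprocal overlap of at least 50% left 108 contig regions shared by all 4 libraries, counted from the shortest list. Keeping only peaks with a fold enrichment of at least 4 left 64.

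**Figure D2:**
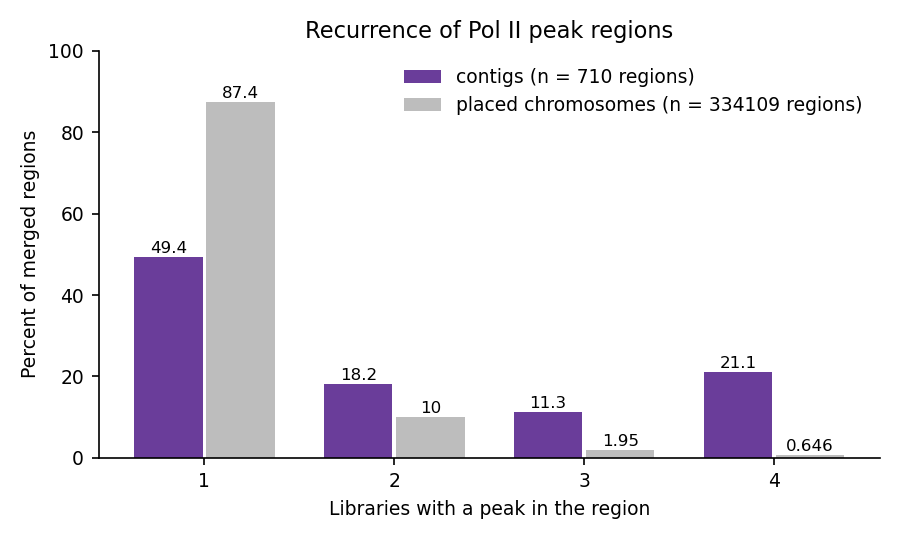
Percent of merged peak regions (y axis) by the number of libraries, 1 to 4, with a peak in them (x axis), for 710 contig and 334109 placed regions. Regions in all 4 libraries were 21.1% of contig and 0.646% of placed regions.

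Recurrence differed between contigs. JH584304 had 67 of its 96 regions in all 4 libraries (69.8%), GL456390 8 of 10 and GL456393 10 of 16. The chromosome 1 contigs GL456210, GL456211, GL456212 and GL456221 had 4 of 55, 9 of 80, 8 of 70 and 8 of 75. At the other end, JH584299 of chromosome 5, the longest contig with 953012 bp, had 59 regions and none in all 4 libraries. The other contigs with a region in all 4 were GL456383 with 6, GL456387 and GL456389 with 4 each, GL456239, GL456370, GL456381 and GL456392 with 3 each, GL456367, GL456378 and GL456396 with 2 each, and GL456216, GL456354, GL456394 and JH584297 with 1 each. The X chromosome contig GL456233, which holds Vamp7, Spry3 and Tmlhe, had 15 peaks, all in young EC-K4KO replicate 2. The 4 contigs of the Y chromosome had no peak in any library, while the placed Y chromosome had 79, 83, 88 and 158.

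Each of the 150 regions was assigned to a kind by its sequence, as the distance from 10 to 300 bases at which it best matched itself. The 58-base family comprised 61 regions on 8 contigs with at least 45% identity at 58, 117 or 234 bases, or at 58 bases short of 234, give or take 3. The 21-base repeats comprised 17 regions on 6 contigs. Of the rest, 27 lay on JH584304, 29 on the chromosome 1 contigs and 16 elsewhere. Identity at the best distance had a median of 69.5% in the 58-base family and 67% in the 21-base repeats, and of 30.6% and 30.2% in the JH584304 and chromosome 1 regions outside the repeats. The 58-base family was AT-rich, with 34.7% to 41.4% G and C, against a median of 51.0% in the 21-base repeats, 53.3% in the other JH584304 regions and 52.9% in the chromosome 1 regions.

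The regions of the family also shared sequence with placed regions, to different degrees. Of the 12-base words in its 38 regions on JH584304, a median of 70.3% (range 60.6% to 83.3%) also occurred in the 5 tallest placed regions of the same period, on chromosomes 2, 9, 12 and 14. In its 23 regions on 7 other contigs the median was 25.2% (range 15.3% to 54.4%). The median was 0 in each other kind of contig region. The share was 0 throughout the 21-base repeats and the chromosome 1 regions, at most 5.43% in the other JH584304 regions and at most 28.3% in the remaining sequence, where 5 regions had 14.5% to 28.3% and were all higher in both old WT Cre libraries. These shares overlapped those of the family away from JH584304. A 234-base unit with about 58-base sub-units and high AT content is known of the mouse major satellite. No repeat annotation was used here, so the family is named by its period.

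The contrast between groups followed the kind of sequence. The contrast below compares FPM, taking the highest peak of a library within a region. Both old WT Cre libraries were above both young EC-K4KO libraries in 67 of 150 contig regions (44.7%), where the share over all 2310 regions with a peak in all 4 libraries was 7.4%. Both young EC-K4KO libraries were above both old WT Cre libraries in 52 (34.7%), where the share over all was 27.4%. With the tallest peak of each library taken out of its fragment total, the contig counts were 70 and 46, beside 9.22% and 17.7% of all regions, and by fold enrichment they were 30 and 44, beside 9% and 20.8%. On placed chromosomes the counts by pileup were 104 and 580 of 2160 (4.81% and 26.9%).

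In the 58-base family, all 61 regions were higher in both old WT Cre libraries. Their median pileup was 139 and 164 FPM in old WT Cre against 34.2 and 17.6 in young EC-K4KO, a level set by JH584304, which held 38 of the 61. Those 38 had medians of 175 and 195 FPM against 45.8 and 23. The 23 on other contigs had 11.5 and 12.9 FPM against 4.51 and 2.07, and each of the 23 was higher in both old WT Cre libraries. The median old WT Cre over young EC-K4KO ratio was 5.37, with a range of 2.53 to 8.43. It was 5.65 on JH584304 and 4.06 on the other contigs. The median of the 2310 regions was -0.47 on the log2 scale. The tallest peak of the genome, on chromosome 2, was itself of the family. It equalled 14.6% and 15.3% of old WT Cre fragments against 3.36% and 1.73% of young EC-K4KO fragments. Taking it out of the fragment totals moved the median of the 2310 regions by 0.20, to -0.27. All placed family regions equalled 23.7% and 25.7% against 5.79% and 3.03%. The totals that every FPM is divided by thus hold family signal, of which this step removes only a part. Relative to the median of all regions, the family stood at 2.89 on the log2 scale and all other contig regions together at -0.10.

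**Figure D3:**
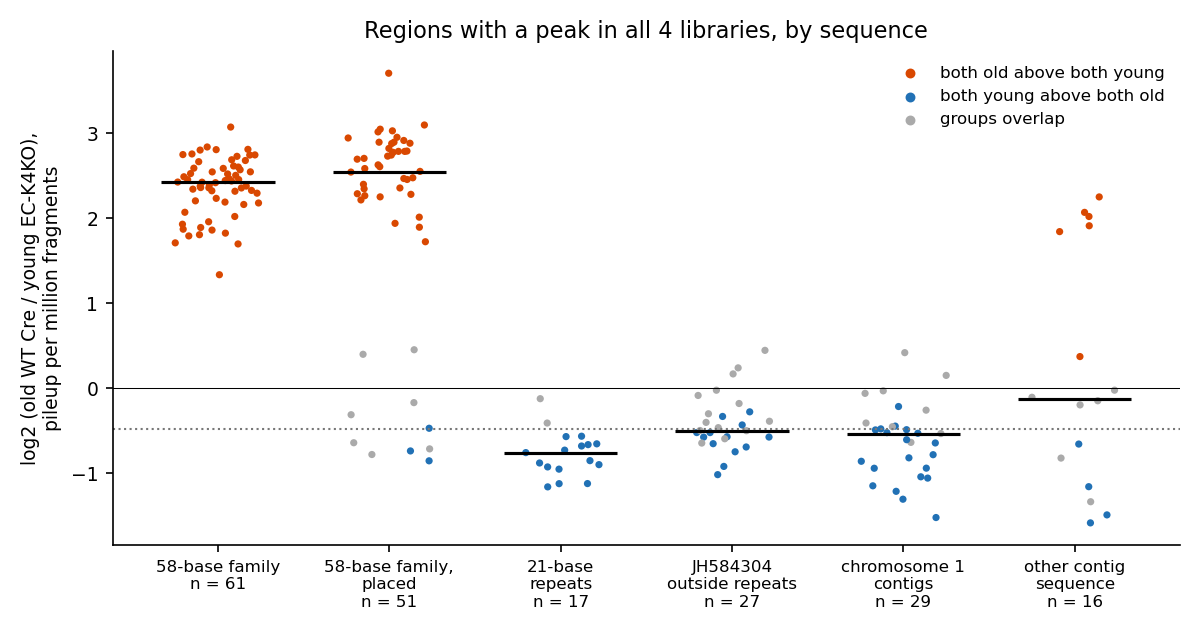
Log2 ratio of old WT Cre to young EC-K4KO pileup in FPM (y axis) for regions with a peak in all 4 libraries, by kind of sequence (x axis); each point is a region, orange where both old WT Cre libraries are above both young EC-K4KO libraries, blue for the reverse, grey where groups overlap, black bars are medians and the dotted line is the median of 2160 placed regions (-0.48). All 61 contig regions of the 58-base family lie at 1.34 or above.

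None of the 17 regions of 21-base repeats was higher in both old WT Cre libraries, and 15 were higher in both young EC-K4KO libraries. Their median pileup was 2.81 and 2.22 FPM in old WT Cre against 4.46 and 5.20 in young EC-K4KO, a young EC-K4KO over old WT Cre ratio of 1.69 for the median region. Relative to all regions they stood at -0.29 on the log2 scale. The other JH584304 regions (median log2 ratio -0.50) and the chromosome 1 regions (-0.53) lay close to the median of all regions, with 13 of 27 and 20 of 29 higher in both young EC-K4KO libraries. By fold enrichment the young EC-K4KO counts were lower in these kinds. Of the 17 regions of 21-base repeats, 3 were higher in old WT Cre while 4 were higher in young EC-K4KO. The counts were 5 and 2 of 27 for the other JH584304 regions and 8 and 3 of 29 for the chromosome 1 regions. Over all 2310 regions the shares by fold enrichment were 9% and 20.8%.

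The same contrast can be described within libraries, where no fragment total enters, and no test is given because the kinds were drawn up with these ratios known. The median pileup of the 58-base family was 52.2 and 86.3 times that of the other 89 contig regions in old WT Cre, against 16.3 and 6.25 times in young EC-K4KO. Without JH584304 in the family, these became 4.33 and 6.81 times against 2.15 and 0.734 times. Over the whole family, the log2 of this ratio was 6.07 ± 0.51 (SD, n = 2) for old WT Cre against 3.33 ± 0.98 for young EC-K4KO, a difference of 2.73. Without JH584304 in the family it was 2.44 ± 0.46 against 0.33 ± 1.10, a difference of 2.11. Both old WT Cre values exceeded both young EC-K4KO values either way. Without young EC-K4KO replicate 2, the library that stood apart, the median log2 ratio was 1.94 in the family and -0.36 in the other contig regions, the difference in summed contig pileup was 0.685 percentage points, the mean log2 density ratio was 1.80, and 168 contig regions had a peak in all of the other 3 libraries.

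Along JH584304 the contrast between groups changed between the regions outside the tandem array and the first region in it. Its 29 regions between positions 237 and 60861 had a median pileup of 7.52 and 8.41 FPM in old WT Cre against 8.77 and 13.4 in young EC-K4KO, and none was higher in both old WT Cre libraries. Their median log2 ratio of -0.46 was close to that of all 2310 regions, -0.47. After 7635 bp without a region shared by all 4 libraries, the regions of the array ran from 68497 to 113829, near the contig end at 114452. These limits are edges of peak regions, and the start of the repeat in the sequence was not located. Its 38 regions had medians of 175 and 195 FPM in old WT Cre against 45.8 and 23 in young EC-K4KO, and all 38 were higher in both old WT Cre libraries. The step into the array was therefore far larger in old WT Cre than in young EC-K4KO, and smallest in young EC-K4KO replicate 2.

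**Figure D4:**
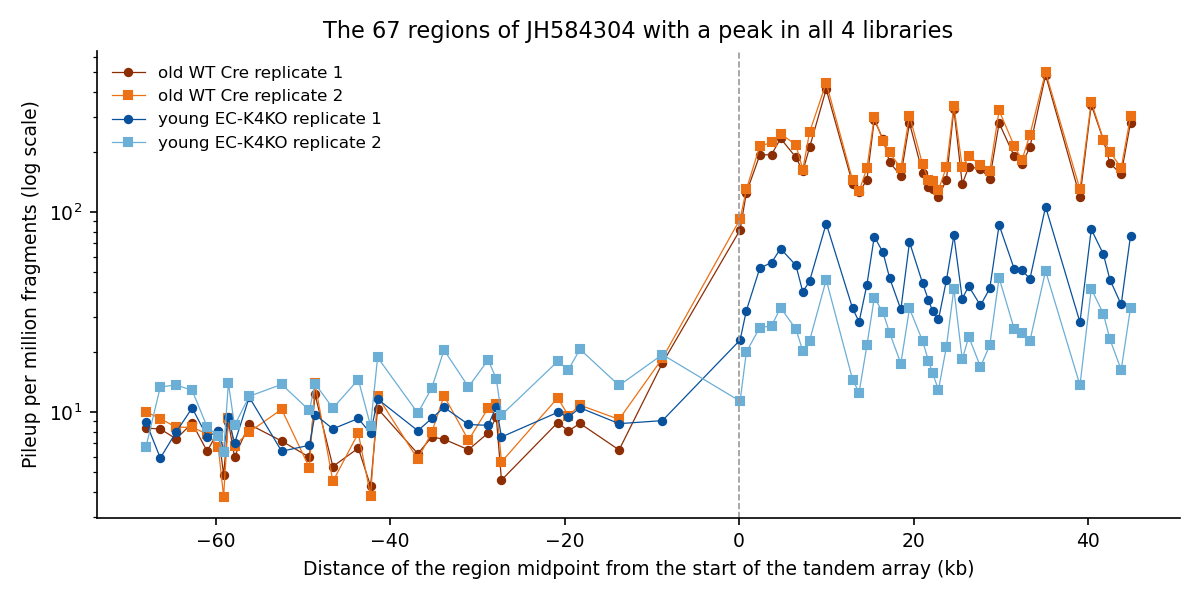
Pileup in FPM (y axis, log scale) of the 67 JH584304 regions with a peak in all 4 libraries, with 1 line per library. The x axis is the distance in kb of the region midpoint from the start of the first array region (dashed line at 0). Left of the array the 4 lines cross; in the array both old WT Cre lines lie above both young EC-K4KO lines in all 38 regions.

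GL456393 held both kinds of repeat within 55711 bp. Its 4 regions of the 58-base family were all higher in both old WT Cre libraries and its 6 regions of 21-base repeats were all higher in both young EC-K4KO libraries. In the tallest of the former, at chrUn_GL456393:9851-10549, pileup was 22.2 and 22.1 FPM in old WT Cre against 6.70 and 3.57 in young EC-K4KO. In the tallest of the latter, at chrUn_GL456393:41246-41661, it was 6.27 and 5.14 against 12.3 and 12.4. In neither did the groups overlap, and they differed in opposite directions on the same contig.

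Among the 61 family regions with a peak in all 4 libraries the largest ratio was outside the array, and the region of the next-largest ratio outside it was on GL456389. At chrUn_GL456392:21941-23551, pileup was 266 and 369 FPM in old WT Cre against 49.3 and 28 in young EC-K4KO, a ratio of 8.43. At chrUn_GL456389:10394-10908, where the period was 234 bases, it was 132 and 184 against 28 and 17.6. Those regions stood far above their own surroundings in every library, with fold enrichments of 25 to 28.9 and of 41.4 to 47.6. The 24-base words of both were nearly unique in the assembly, found at a median of 2 places and 1 place. The tallest contig region not found in all 4 libraries was also of the family, with a 117-base period, at chrUn_GL456396:11941-12531. It had 131 and 258 FPM in old WT Cre against 43.7 in young EC-K4KO replicate 1, and no peak was listed in young EC-K4KO replicate 2.

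Among the 150 regions the lowest ratio was on the 31-base repeats of GL456370, whose 3 recurrent regions were all higher in both young EC-K4KO libraries. At chrUn_GL456370:26294-26603 pileup was 9.13 and 7.03 FPM in old WT Cre against 22.1 and 26.1 in young EC-K4KO, a log2 ratio of -1.58. The replicates lay close together and the groups well apart. A taller peak of 31-base period at the end of the same contig, chrUn_GL456370:8-177, was listed in the young EC-K4KO libraries alone, at 33.2 and 34.9 FPM. Where no peak is listed the tables hold no pileup, so no ratio can be given for it.

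The 58-base family had a median local background of 836 and 961 times the lowest of the library in old WT Cre against 210 and 106 times in young EC-K4KO. These levels were those of the array on JH584304, where the medians were 920 and 1062 against 228 and 120. The 23 regions on other contigs had medians of 20.2 and 22.7 against 7.16 and 3.88, below the JH584304 regions outside the repeats. The old WT Cre backgrounds were thus higher by about the same factor as the pileups. Measured as fold enrichment over that background, 12 of the 61 regions were higher in old WT Cre (both libraries above both others), beside 9% of all 2310 regions. In the same way 32 of the 61 were higher in young EC-K4KO, beside 20.8% of all regions, and the median log2 ratio of the 61 was -0.07. On JH584304 5 were higher in old WT Cre while 27 were higher in young EC-K4KO, with a median of -0.14, and on the other contigs 7 and 5, with a median of 0.08. The excess in old WT Cre was therefore found in pileup per fragment and not in enrichment over the surrounding 10 kb.

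**Figure D5:**
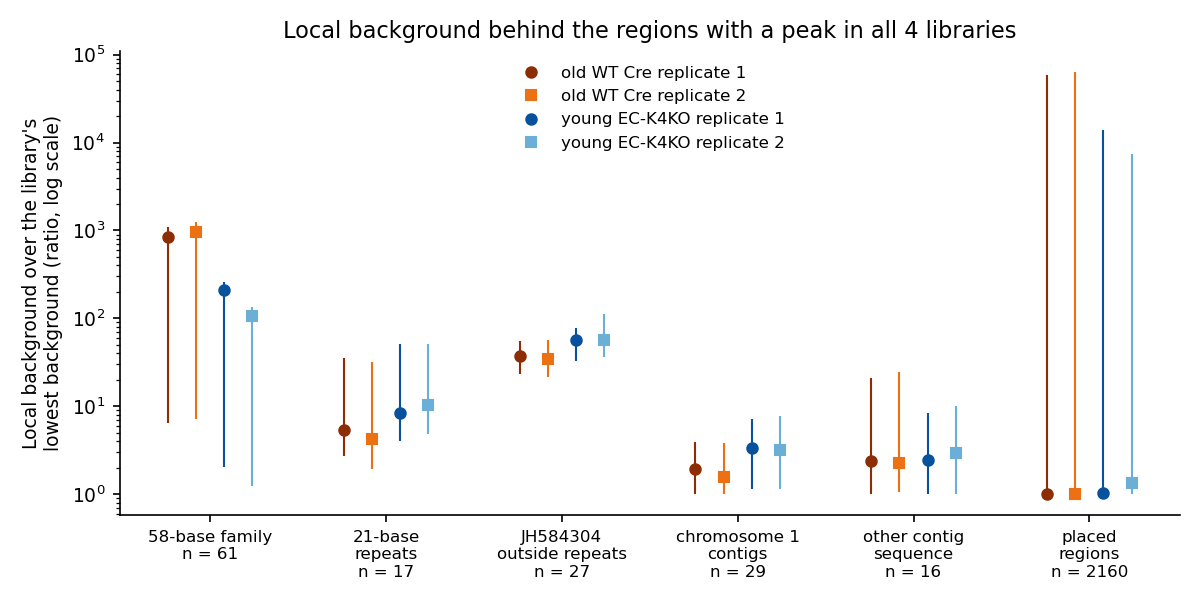
Local background divided by the lowest background of the library (y axis, log scale) behind regions with a peak in all 4 libraries, by kind of sequence (x axis); symbols are medians over regions and vertical lines the full range, for each of the 4 libraries. The 58-base family, 38 of whose 61 regions are on JH584304, has medians of 836, 961, 210 and 106, and placed regions have medians of 1.00 to 1.34.

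The JH584304 regions outside the repeats had backgrounds of 37.4, 34.6, 56.4 and 57.0 times the lowest, higher in both young EC-K4KO libraries. Their 24-base words occurred at a median of 2 places in the assembly. The chromosome 1 regions stood at 1.92, 1.56, 3.34 and 3.17 times with a median of 10 places. In the 21-base repeats the background was 5.41, 4.23, 8.44 and 10.2 times the lowest while the median was 1 place. The median word was at 1 place in 11 of the 17 regions of 21-base repeats and in 22 of the 61 of the 58-base family. Places in the assembly are not copies in the genome, and the background spans 10 kb while the words are of the region. The part of copy number in the background was therefore not tested.

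Over all 150 regions, a median of 83.8% of the 24-base words in a region occurred elsewhere in the assembly, against 95.1% in the placed regions with a peak in all 4 libraries. The median word occurred at 4 places for contig and 144.5 places for placed regions. The bases marked as repeats in the reference had medians of 70.8% and 96.8%. In the family the median was 28 places, with a median of 1 on placed chromosomes. It was 38.5 places for the 38 regions on JH584304 and 1 place for the 23 on other contigs.

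Base composition moved with the family. Its highest G and C content was 41.4%, and of the 89 contig regions outside the family 5 were at or below that value. All 5 were also higher in both old WT Cre libraries, and 4 of them matched themselves at 57 or 58 bases with 41.1% to 42.2% identity, just under the 45% needed. Those 4 also shared 12-base words with the placed regions of that period, 17.0% to 28.3% of them. The members just inside, on GL456389 and GL456390, had 45.6%, 46.3% and 47.2% and log2 ratios of 2.55, 1.70 and 2.07. Of the 84 contig regions above that G and C content, 1 was higher in both old WT Cre libraries. On placed chromosomes 51 regions had a period of the family. The 41 at or below the same G and C content were all higher in both old WT Cre libraries, and none of the 10 above it was. Of 18 placed regions outside the family at or below it, 5 were. Period and base composition cannot be told apart on the contigs.

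Most recurrent contig regions lay away from genes. Of the 150, 105 were between annotated genes, 24 in introns only and 21 over exons, and 15 were within 1500 bp of an annotated start. All 61 regions of the 58-base family were between genes, 1 of them within 1500 bp of a start, that of the pseudogene LOC115489313 on GL456216. Of the 21-base regions, 16 of 17 were between genes. The regions within genes lay nearly all on the first part of JH584304 and on the chromosome 1 contigs.

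On JH584304, 24 recurrent regions overlapped LOC100861749 (chrUn_JH584304:4567-52729, plus strand), a transcribed pseudogene annotated as like SFI1, whose parent encodes a centrosomal protein. Within it lies a pseudogene of Eef2, the gene of a translation elongation factor, LOC100861738, at chrUn_JH584304:33886-35505. A region of nearly the same extent, chrUn_JH584304:33880-35477, had a peak in all 4 libraries. Its pileup was 7.33 and 12.1 FPM in old WT Cre against 10.6 and 20.5 in young EC-K4KO, and the groups overlapped. The lncRNA gene LOC105247294 was overlapped by 4 recurrent regions and LOC108168686 by 1.

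Pisd-ps3, a transcribed pseudogene of the phosphatidylserine decarboxylase gene Pisd (chrUn_JH584304:52674-59689, minus strand), was overlapped by 2 regions. The one at its start, chrUn_JH584304:58548-60861, was the widest of all recurrent contig regions at 2314 bp. Its pileup was 17.6 and 18.6 FPM in old WT Cre against 9.08 and 19.4 in young EC-K4KO. Young EC-K4KO replicate 1 alone was low, the groups overlapped, and its log2 ratio of 0.45 was the highest among the 29 regions before the array. The other, at chrUn_JH584304:54613-54869 over an exon, had 6.48 and 9.21 FPM against 8.77 and 13.6.

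The chromosome 1 contigs hold copies of genes for Sp100, Sp110 and Sp140, proteins of nuclear bodies that are induced by interferon, and no region there was higher in both old WT Cre libraries. Csprs, annotated as component of Sp100-rs (chr1_GL456221_random:111558-163011, minus strand), was overlapped by 2 regions. The exonic one, chr1_GL456221_random:149237-149993, lies also at the start of the lncRNA LOC115489309, with 0.761 and 1.20 FPM in old WT Cre against 1.45 and 1.54 in young EC-K4KO. The intronic one, chr1_GL456221_random:128706-129010, had 1.02 and 0.947 against 1.14 and 1.15. In both, the young EC-K4KO values were the higher, by little in the second.

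LOC100041057, annotated as nuclear body protein SP140-like, was overlapped by 3 regions, 2 of them over exons. In its intronic region pileup was 0.958 and 0.473 FPM in old WT Cre against 0.908 and 0.881 in young EC-K4KO, so that the groups overlapped, and in the exonic region at chr1_GL456211_random:167610-168009 it was 1.06 and 0.583 against 1.22 and 1.67. At chr1_GL456211_random:197372-197706 it was 0.943 and 0.510 FPM in old WT Cre against 1.33 and 1.94 in young EC-K4KO. At LOC546061, sp110 nuclear body protein-like, region chr1_GL456210_random:112705-113274 had 0.548 and 0.473 against 0.852 and 2.51. Both young EC-K4KO values were thus the higher in 2 of the 3 regions of LOC100041057 and in the region of LOC546061, where replicate 2 stood well above replicate 1. LOC102638047, also annotated as sp110 nuclear body protein-like, had a region within 1500 bp of its start, chr1_GL456212_random:146575-146786, with 1.00 and 1.24 against 1.62 and 3.26. LOC100503923, proteinase-activated receptor 1-like, likewise had one at its start, with 1.02 and 1.27 against 1.87 and 2.55. Starts of LOC101055663, component of Sp100-rs-like, and of the pseudogene LOC102633548 were also near a recurrent region. Recurrent regions in LOC100041708, LOC108167387, LOC115486430, LOC102636478, LOC100041034, LOC100041903, LOC100041877, LOC102637781 and LOC108168674 lay in introns or exons away from the start. Near-identical copies of these genes could share reads, so the copy a fragment came from is uncertain.

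The region chr1_GL456211_random:125175-125554, the tallest recurrent one of the chromosome 1 contigs in every library except young EC-K4KO replicate 1, lay between genes. Its pileup was 1.38 and 1.64 FPM in old WT Cre against 1.42 and 3.35 in young EC-K4KO, and the groups overlapped. In GL456354 of chromosome 5, the region in an intron of LOC624931, PRAME family member 8-like, had words found at a median of 2903 places in the assembly, the most of any recurrent contig region. There the values were 0.380, 0.765, 0.454 and 0.661 FPM.

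The annotation places 139 genes on contigs, 69 of them protein-coding. A peak in or within 1500 bp of a protein-coding gene was present for 28 and 21 in old WT Cre against 23 and 35 in young EC-K4KO. For 16 genes it was present in all 4 libraries and for 28 in none. The share of all protein-coding genes by this definition was not computed, so the counts are not compared between groups. By the narrower definition of a promoter peak, that share was 25.6%, 24.5%, 10.7% and 67.5%. Besides those named, the 16 included Dhrsx, which encodes a dehydrogenase of the short-chain family, and the vomeronasal receptor gene Vmn2r122, neither of which was overlapped by a recurrent region. Cd99, the gene of a leukocyte and endothelial adhesion protein, had a peak in 3 libraries. Of the chemokine genes on the chromosome 4 contigs, Ccl21c had a peak in 1 library. Pseudogenes, transcribed pseudogenes and lncRNA genes had a peak in all 4 libraries in 5 of 33, 3 of 10 and 11 of 27 cases.

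Short motifs were searched on both strands of the recurrent regions. The telomere repeat TTAGGG in a pair and the CENP-B box, the motif by which a centromere protein binds the minor satellite, were found in none of the 150. A CCAAT box (CCAAT) was in 30.7% of contig and 46.5% of placed regions with a peak in all 4 libraries, and a TATA box (TATAAA) in 6.67% and 6.25%. A GC box (GGGCGG) was in 5.33% and 34.6%, an E box (CACGTG) in 5.33% and 12%, and the ETS core (CTTCCGG) in 1.33% and 17.9%. By kind, CCAAT was in 12 of 17 regions of 21-base repeats and in 5 of 61 of the 58-base family. The contig and placed sets differ in base composition and repeat content, and placed regions were wider, with a median of 699 bp against 513.5 bp, so these shares describe the letters present and no more.

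Regions found in fewer than 4 libraries numbered 560. Both old WT Cre libraries but neither young EC-K4KO library had a peak in 23, or 3.24% of the 710 contig regions, where the share over all merged regions was 1.36%, and 6 of the 23 were of the 58-base family. The reverse held for 35 (4.93%), where the share over all was 1.62%, with 0 of the family. Both shares were above those over all regions.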

How the data were processed

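By the study's methods, reads were trimmed (TrimGalore), mapped to the mm10 build (Bowtie2) and stripped of duplicates (Picard, SAMtools). The authors then ran MACS2 on every library separately, without a control. The tallest placed region, 784 bp on chromosome 2, had a pileup of 9576110 fragments in old WT Cre replicate 1. Whether duplicates remain in the deposited pileups was not tested, so a pileup may count duplicate fragments. The methods and the table headers give different MACS2 versions, and the headers name 2.2.7.1. A mapping-quality filter for these libraries is not given in the sources used here. The deposited tables list the pileup of each peak, which is the coverage signal at its summit, in fragments and unscaled between libraries. They also hold the authors' fold enrichment, the ratio of pileup to local background, and −log10 of the p-value and of the q-value (at most 0.01). The separate summit and narrow peak lists were not used, apart from a check that summit positions matched the tables.

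Pileups were divided by the fragment total of the library, which sets the depth and precision. Local background was computed as (pileup + 1) / fold − 1. Peaks overlapping by 1 bp were merged. Contig names were paired with RefSeq sequences by length, and exon ends of GENCODE M21 and RefSeq were checked: of 23 contigs with GENCODE exons, 18 matched their pair best, 5 shared no exon end and 0 matched another better. Genes and sequences are from RefSeq GRCm38. Regions were assigned to kinds by period and identity (45% or more), and copies counted as 24-base words on both strands. Groups were compared by exact permutation of libraries with Python 3.11.15, numpy 2.4.6, pandas 2.3.3, scipy 1.17.1 and samtools 1.23.1.

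The peaks, the kinds of sequence and all lists were chosen with earlier results of these data known. Genes and contigs named are those with a region in all 4 libraries, genes such a region overlaps or lies within 1500 bp of the start of, the 5 tallest contig peaks of each library and the protein-coding genes of contigs. Regions given with values were picked from these after their values were seen. Alternatives were a q-value of at most 1e-05, fold enrichment of at least 4, lists of equal length, contig subsets, other denominators, 36-base words, reciprocal overlap, and leaving out each replicate. The merging, period, word-count and permutation steps were tested on simulated data. Other assays of the study were not analysed here.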

Additional observations from a re-analysis of the deposited data

How the results depend on the processing

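Of 105 alternative values, 92 kept their direction or stayed within 1.5 times the count, 9 reversed and 4 counts moved further. The contig over placed log2 ratio of median fold enrichment, 0.04, became -0.13 at a q-value of at most 1e-05, -0.12 in lists of equal length and -0.0778 on contigs assigned to no chromosome. The old WT Cre minus young EC-K4KO difference in percent of peaks on contigs, -0.0590, became 0.000633 on contigs assigned to no chromosome, and ranged from -0.472 to 0.354 with each replicate left out, positive without old WT Cre replicate 1 (0.0182) or young EC-K4KO replicate 1 (0.354). The log2 density ratio, 1.36, became 0.51 on contigs assigned to a chromosome, 1.00 without JH584304 and 1.26 at a fold enrichment of at least 4, with contigs denser in 3 of 4 libraries each time. The difference in contig pileup, 0.723 percentage points, became -0.00910 on contigs assigned to a chromosome, 0.0613 without JH584304 and 0.306 at a fold enrichment of at least 4. As a share of all peak pileup it was 1.01 (exact permutation, p = 1), and the groups overlapped. The 150 regions in all 4 libraries became 64 at a fold enrichment of at least 4, 32 on contigs assigned to a chromosome and 83 without JH584304. By fold enrichment the 67 regions higher in old WT Cre became 30, and the median log2 ratio became -0.0723 in the 58-base family and 0.0501 in the other contig regions. Without JH584304 the medians by pileup, 2.43 and -0.56, were 2.02 and -0.65. Leaving out each replicate moved these medians between 1.94 and 2.91 and between -0.77 and -0.36. The alternatives for these medians, and leaving out replicates for the counts by group, were chosen after seeing the data. The causes were not tested, apart from settings that use fewer contigs or peaks by construction.

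Replicate numbers 1 and 2 occur in both groups but nothing ties them to shared mice or days. Deviations of same-numbered libraries correlated at 0.391 over 2310 regions and 0.0477 over the 150 contig regions. With the replicate block, 2 pairs gave the same differences, -110 peaks, -0.0590 and 0.723 percentage points (exact sign-flip permutation, p = 1.0, 1.0 and 0.5). Called pileups went down to between 7 and 13 fragments, so regions missing from a library can lie below what its depth allows to be called.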
